A study of Drosophila melanogaster with 2 samples.

Results

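The genes of the epidermal growth factor receptor (EGFR) pathway were followed across the 10 annotated cell classes of the adult midgut of Drosophila melanogaster. They were chosen by name, as ligands, receptor, and feedback or target genes of the pathway. Of the 10 genes named, 9 had a row among the 9607 genes of the expression table: Egfr, spi, vn, rho, aos, pnt, sty, cic and kek1. Krn, which encodes another ligand, was not analysed here. Single midgut epithelial cells of wild type Canton S females were sequenced in 1 droplet RNA library of 3-day old flies and 1 of 1-day old flies. The labels name no transgene, mutation or treatment in either library, and the number of flies behind each was not given in the sources used here. Each age had 1 library, so a difference between ages cannot be told apart from a difference between preparations, no test between ages could be run, and no p-value is given.

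In flies the receptor tyrosine kinase Egfr is switched on by secreted ligands. Spitz, made as a membrane-bound precursor, is released by the protease Rhomboid, while Vein is secreted directly. The active receptor signals through Ras and the MAP kinase cascade to the nucleus, where the ETS factor Pointed activates targets and the repressor Capicua is shut off. Argos, Sprouty and Kekkon1 are feedback inhibitors whose genes are switched on by the pathway in other fly tissues. In the midgut the pathway is known for driving the division of intestinal stem cells and for supporting growth and survival of the epithelium.

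At day 3, 1473 cells gave 58700717 unique molecular identifiers (UMIs, each marking 1 captured transcript), against 2711 cells with 86114751 UMIs at day 1. The median cell held 32121 UMIs at day 3 and 25935 at day 1. The libraries shared 1 cell barcode. Of the annotated classes, ISC1 and ISC2 are intestinal stem cells by name and EB1, EB2 and EB3 enteroblasts, the cells that differentiate next; these 5 are called progenitors here. The others are EC-like cells, AstC+EE and Tk+EE cells (hormone-secreting enteroendocrine cells), and apEC and mEC cells (absorptive enterocytes). Fixed enterocyte markers summed to 555 UMIs per 10000 in day 3 and 680 in day 1 enterocytes, against 2.93 and 5.32 in day 3 and day 1 progenitors. Within the enterocytes, the sum was 18.3 in day 3 and 25.9 in day 1 mEC cells, against 916 and 897 in apEC cells. Fixed enteroendocrine markers summed to 951 at day 3 and 798 at day 1 in enteroendocrine cells, and to 0.594 and 0.427 in progenitors.

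A level is the authors' depth-corrected count, scaled to a corrected total of 10000 in each cell and averaged over cells. That correction raises some values of 0 UMIs in shallow cells and removes single UMIs in deep cells. For each member the least and the most UMIs compatible with the deposited values were therefore also summed over all cells of a class. Their interval, called the UMI interval below, runs from the exact Poisson 95% lower limit of the least count to the upper limit of the most count, per 10000 UMIs. It covers counting error and the correction only, not variation between flies or libraries. Classes were clustered by the authors on the same cells, so differences between classes are descriptions.

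All 9 members had higher levels in progenitors than in enterocytes. On the level scale each of the 9 was past 1.5-fold in both libraries, while 37.4% of 5417 genes were higher in progenitors by the same rule. The median log2 difference of progenitors over enterocytes was 1.59 over the members, against 0.43 over all genes. For sty the difference was 2.72 in the day 3 and 2.39 in the day 1 library, and for cic 2.42 and 2.2. For aos it was 2.43 at day 3 and 1.95 at day 1, and for kek1 2.82 and 1.29. By the UMI intervals, spi, aos, pnt, sty, cic and kek1 were apart in both libraries (6 of 9 members, against 30.6% of 4711 genes). The intervals of Egfr, vn and rho overlapped in both libraries, with 60 enterocytes at day 3 and 72 at day 1. Fewer transcripts per cell and a larger total of other transcripts, such as those of digestive enzymes, cannot be told apart on a scale per 10000.

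Each of the 9 members differed past 1.5-fold between its highest and lowest class in both libraries, as did 99.4% of all genes. The members did not follow 1 pattern within the progenitors, and EB2 cells stood apart. For aos, sty, cic and kek1 the UMI interval of EB2 cells lay below those of ISC1, ISC2, EB1 and EB3 in both libraries. These are 4 of 9 members, against 4.79% of 5014 genes. By contrast, rho, which encodes the ligand-releasing protease, had its highest level of any class in EB2 cells at day 3. The UMI interval of EB2 cells lay above those of the other 4 progenitor classes in both libraries for 0 of the 9 members, against 14.6% of 5014 genes. EB2 cells were the deepest class, with a median of 67953.5 UMIs at day 3 and 50586.5 at day 1. In the few EB2 cells no deeper than the median of all cells, 6 at day 3 and 24 at day 1, the stem and progenitor markers summed to 9.09 UMIs per 10000 at day 3 and 7.12 at day 1. In the other progenitor classes that sum lay between 17.9 and 29.8. The enteroblast markers summed to 7.34 in EB2 cells at day 3 and 9.75 at day 1, below the other progenitor classes, stem cells included, which had 13.5 to 36.0. In enterocytes up to the same depth the enteroblast markers summed to 0.355 at day 3 and 1.44 at day 1, below EB2 cells. In these few cells the markers thus did not bear out the enteroblast name of EB2, which is kept here as the authors' label. The deeper EB2 cells are not covered by these sums. The dip of aos and kek1 over all EB2 cells was not seen in the 6 shallower ones at day 3. There kek1 had 1.095 UMIs per 10000, above ISC1, ISC2 and EB1 cells up to the same depth and below EB3. For aos the value was 0.657, above ISC2 and EB3 and below ISC1 and EB1. In these cells sty and cic were lower than in the other 4 progenitor classes, as were all 4 genes in the 24 EB2 cells at day 1. The part of depth or class identity in these levels was not tested.

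**Figure D1:**
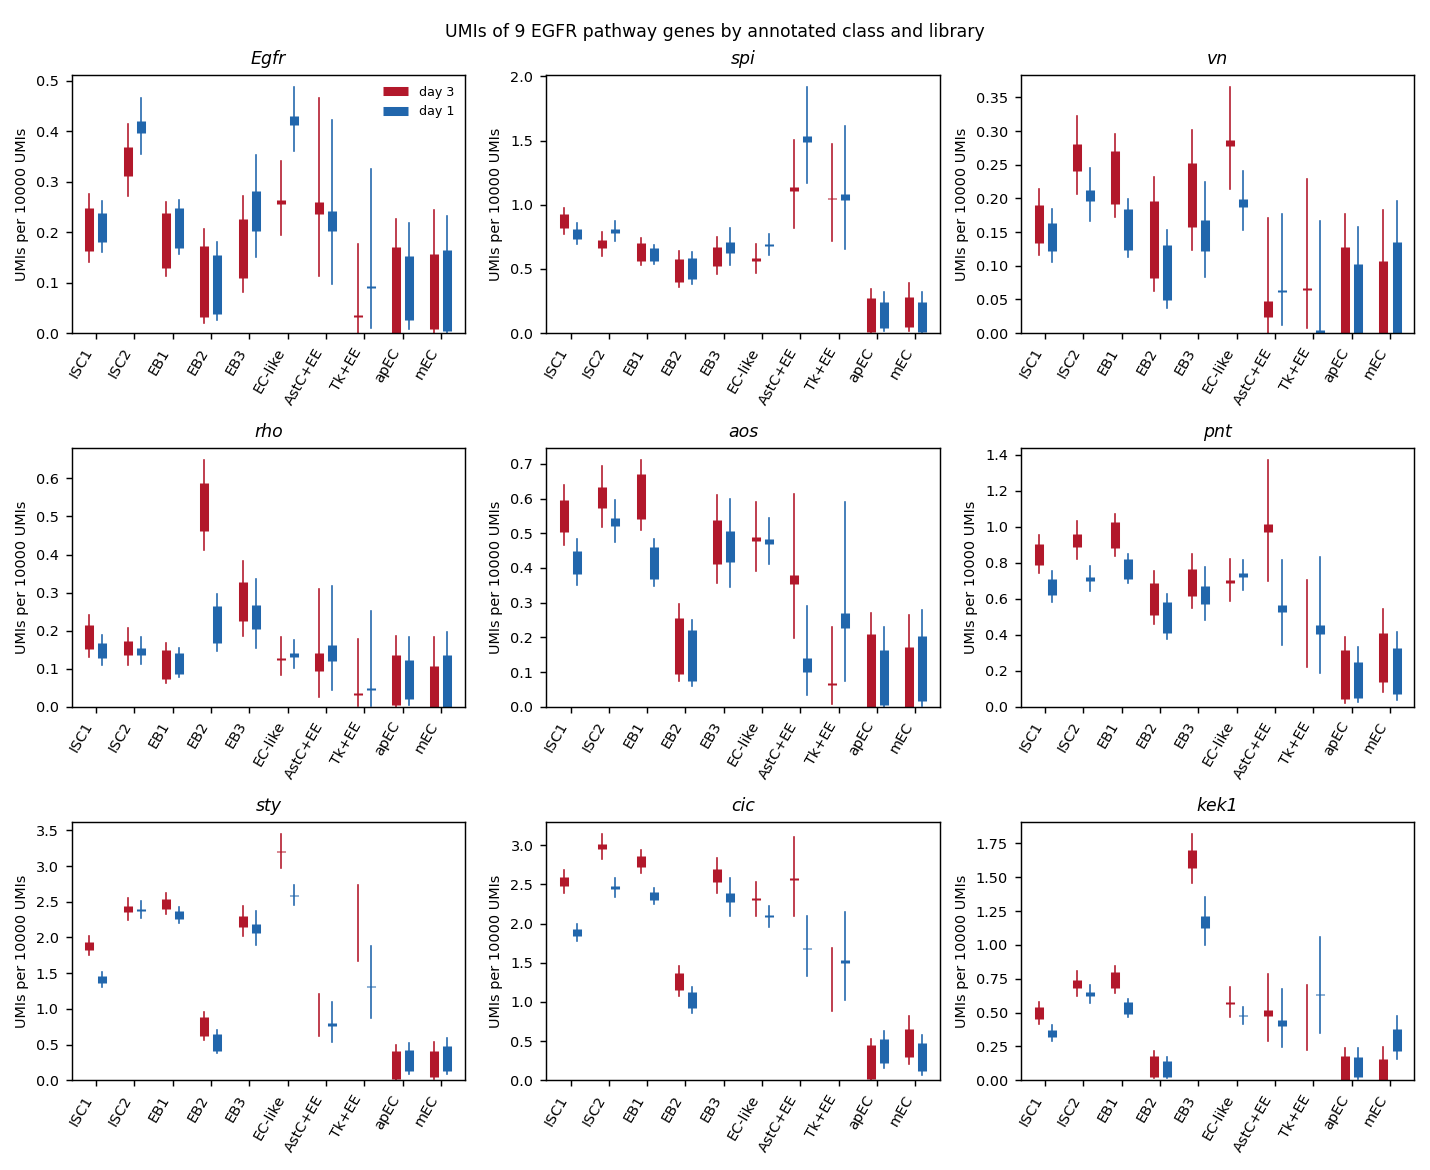
UMIs per 10000 UMIs (vertical axis, linear from 0) of the 9 members in the 10 annotated classes (horizontal axis), with day 3 in red left of day 1 in blue. Thick bars run from the least to the most UMIs compatible with the deposited values and thin lines show the UMI interval; kek1 peaks in EB3, rho peaks in EB2 at day 3 only, and aos, sty, cic and kek1 dip in EB2 cells.

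The receptor came first. Egfr (arm 2R) encodes the only EGF receptor of the fly. Its level was highest in ISC2 cells, at 0.350 per 10000 at day 3 and 0.405 at day 1, followed by EC-like cells at 0.262 at day 3 and 0.390 at day 1. ISC1 cells had 0.210 at day 3 and 0.226 at day 1, EB1 cells 0.181 and 0.214, and EB3 cells 0.164 and 0.252. The EB2 level was 0.0576 at day 3 and 0.0531 at day 1. The UMI interval of EB2 cells was 0.0209 to 0.206 at day 3, against 0.0268 to 0.181 at day 1. It lay below that of ISC2 cells, which was 0.272 to 0.416 at day 3, against 0.356 to 0.466 at day 1, but overlapped those of ISC1 and EB1. Among enteroendocrine cells, Egfr was at 0.191 at day 3 and 0.172 at day 1 in AstC+EE cells, and at 0.0123 and 0.0286 in Tk+EE cells. Their UMI intervals overlapped at these low counts. In enterocytes the level was 0.00618 at day 3 and 0.0236 at day 1.

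Of the ligands, spi (2L, 19567900 to 19577315, minus strand) was highest in enteroendocrine cells. Its level was 1.09 at day 3 and 1.45 at day 1 in AstC+EE cells, and 1.18 and 1.28 in Tk+EE cells. The progenitor classes lay between 0.513 (EB2) and 0.902 (ISC1) at day 3 and between 0.481 (EB2) and 0.826 (ISC1) at day 1. EC-like cells had 0.663 at day 3 and 0.774 at day 1. Progenitors were thus below enteroendocrine cells, by log2 differences of -0.61 at day 3 and -0.92 at day 1. The UMI interval of progenitors at day 3, 0.598 to 0.768, lay below that of enteroendocrine cells, 0.859 to 1.36. At day 1 it was 0.587 to 0.720, below 1.1 to 1.70 in enteroendocrine cells. This was 1 of 9 members, against 18.9% of 4753 genes lower by that rule. Counted only in cells no deeper than the median of all cells, the difference did not pass 1.5-fold in both libraries. At 4000 UMIs per cell, 32.1% of 56 day 3 enteroendocrine cells had a spi UMI (20.3 to 46.0, exact Clopper-Pearson 95%), against 48.1% of 52 at day 1 (34.0 to 62.4). Within AstC+EE cells the shares were 30.8% of 26 at day 3 (14.3 to 51.8), against 60% of 30 at day 1 (40.6 to 77.3), but at the cells' own depth they were 58.6% and 62.5%. In enterocytes spi was in 0 of 27 cells at day 3, which allows up to 11.1%, and in 7.14% of 28 at day 1.

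The other ligand, vn (3L, 5813338 to 5845664, minus strand), is a neuregulin-like factor that is best known in the gut from the visceral muscle. Here it was found in epithelial progenitors, at 0.275 at day 3 and 0.182 at day 1 in ISC2 cells. EC-like cells had 0.267 at day 3 and 0.174 at day 1, EB1 cells 0.251 and 0.141, EB3 cells 0.245 and 0.155, ISC1 cells 0.149 and 0.132, and EB2 cells 0.143 and 0.0798. The UMI intervals of neighbouring classes overlapped. The level was at most 0.0563 in any enteroendocrine class and at 0 in enterocytes of both libraries. The UMI interval of enterocytes reached up to 0.161 at day 3 and 0.158 at day 1. At 4000 UMIs, vn was found in 11.3% of 406 day 3 progenitors (8.42 to 14.8), against 6.09% of 1034 at day 1 (4.71 to 7.73). All 7 visceral muscle markers together gave 30 UMIs in 407 progenitors at day 3 and 74 in 1035 at day 1, or 0.0375 and 0.0373 per 10000 UMIs. Of these markers, up was at 0 in day 3 progenitors and none was at 0 at day 1. In enterocytes, where vn was at 0, only Mlc2 and wupA of the 7 markers had UMIs at day 3 (8 in sum). At day 1 only Mlc2 had UMIs (36, all in apEC cells). These sums were 0.237 per 10000 UMIs at day 3 and 0.940 at day 1, with Mhc, Act57B, sls, Tm2 and up at 0 in both libraries. The part of muscle RNA in the vn level was not tested. The median depths of the same cells were 20374 UMIs at day 3 and 19840 at day 1 in progenitors, against 10461 and 11724 in enterocytes.

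The protease gene rho (3L, 1463811 to 1468944, plus strand) varied among the progenitor classes. Its level in EB2 cells was 0.600 at day 3 and 0.252 at day 1. EB3 cells had 0.262 at day 3 and 0.289 at day 1, ISC1 cells 0.171 and 0.136, ISC2 cells 0.140 and 0.135, EC-like cells 0.132 and 0.123, and EB1 cells 0.109 and 0.113. At day 3 the UMI interval of EB2, 0.413 to 0.647, lay above that of EB3, 0.185 to 0.382, the next class. At day 1 the intervals of EB2 and EB3, 0.145 to 0.297 and 0.154 to 0.336, overlapped. In 1 EB2 cell lay 17.3% of the day 3 level. Enteroendocrine cells had 0.0354 at day 3 and 0.0925 at day 1, and enterocytes 0.00633 and 0.0141.

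The secreted inhibitor of Spitz, aos (3L, 16470386 to 16483650, minus strand), had its highest level in EB1 cells at day 3, 0.672, against 0.414 in day 1 EB1 cells. The levels at day 3 and day 1 were 0.568 and 0.440 in ISC1, 0.562 and 0.517 in ISC2, 0.540 and 0.475 in EB3, and 0.457 and 0.456 in EC-like cells. EB2 cells had 0.149 at day 3 and 0.118 at day 1, with UMI intervals of 0.0732 to 0.297 and 0.0601 to 0.250. At 4000 UMIs, aos was in 20.7% of day 3 progenitors (16.9 to 25) and 16.2% of day 1 progenitors (14.0 to 18.6). It was in 1.79% of enteroendocrine cells at day 3 and 1.92% at day 1, or 1 cell in each library. Enterocytes had it in 0 of 27 and 0 of 28 cells. The UMI interval of aos in day 3 AstC+EE cells was wide, 0.198 to 0.614. The 29 of 32 such cells up to the median depth held 1 aos UMI, so most of that count came from the 3 deeper cells. Whether those are single cells was not tested.

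Of the intracellular regulators, sty (3L, 3401153 to 3424935, minus strand), which encodes the inhibitor Sprouty, was highest in EC-like cells. Its level there was 3.32 at day 3 and 2.71 at day 1. EB1 cells had 2.57 at day 3 and 2.38 at day 1, ISC2 cells 2.40 and 2.44, EB3 cells 2.24 and 2.13, and ISC1 cells 1.84 and 1.46. EB2 cells had 0.732 at day 3 and 0.484 at day 1. At day 3 the UMI interval of EC-like cells, 2.97 to 3.45, lay above that of EB1, 2.33 to 2.62. At day 1 the interval of EC-like cells was 2.45 to 2.74 and overlapped the next class. The day 1 EC-like class included 81 cells of deposited cluster 6, which held no day 3 cells, and sty was lower in them, at 1.76 to 1.77 UMIs per 10000. Without them the day 1 EC-like interval was 2.66 to 3.00, above that of ISC2, 2.27 to 2.51. The enteroendocrine classes differed in sty. Tk+EE cells had 2.52 at day 3 and 1.86 at day 1, and AstC+EE cells 1.08 and 0.968. The UMI intervals were apart at day 3, at 1.68 to 2.74 in Tk+EE and 0.616 to 1.21 in AstC+EE cells, but overlapped at day 1, at 0.877 to 1.88 and 0.542 to 1.1. At 4000 UMIs, sty was in 57.6% of progenitors at day 3 and 53.9% at day 1, and in no enterocyte, which allows up to 11.1% at day 3 and 10.7% at day 1.

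The transmembrane inhibitor gene kek1 (2L, 12817000 to 12822787, minus strand) was highest in EB3 cells. Its level was 1.87 at day 3 and 1.44 at day 1 in EB3, against 0.0757 and 0.0403 in EB2 cells. The UMI intervals of EB3, 1.46 to 1.82 at day 3 and 1.00 to 1.35 at day 1, were apart from those of the next class in both libraries, EB1 at day 3 (0.646 to 0.844) and ISC2 at day 1 (0.574 to 0.706). The wide interval of the 24 day 1 Tk+EE cells, 0.346 to 1.06, did overlap that of EB3. In EB1 cells the level was 0.773 at day 3 and 0.525 at day 1, in ISC2 cells 0.678 and 0.591, in EC-like cells 0.548 and 0.427, and in ISC1 cells 0.535 and 0.360. AstC+EE cells had 0.480 at day 3 and 0.400 at day 1, and Tk+EE cells 0.302 and 0.464. A single EB3 cell held 10.1% of the EB3 level at day 3 and 9.08% at day 1.

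At the nuclear end, pnt (3R, 23290231 to 23346167, minus strand), the gene of the activator Pointed, was carried by progenitor, EC-like and enteroendocrine classes. Its level at day 3 lay between 0.577 (EB2) and 0.939 (EB1) in progenitors, and at day 1 between 0.439 (EB2) and 0.747 (EB1). The UMI interval of EB2 cells, 0.459 to 0.754 at day 3, lay below that of EB1 cells, 0.837 to 1.07. At day 1 it was 0.375 to 0.627, also below EB1, at 0.685 to 0.850. EC-like cells had 0.806 at day 3 and 0.822 at day 1, AstC+EE cells 0.933 and 0.664, and Tk+EE cells 0.605 and 0.681. Progenitors over enteroendocrine cells differed by 0.12 at day 3 and 0.03 at day 1 (log2). Enterocytes had 0.285 at day 3 and 0.204 at day 1.

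The gene of the repressor Capicua, cic (3R, 20252770 to 20303942, plus strand), had its highest level in ISC2 cells, 2.90 at day 3 and 2.54 at day 1. EB1 cells had 2.74 at day 3 and 2.34 at day 1, EB3 cells 2.56 and 2.46, ISC1 cells 2.44 and 1.95, and EC-like cells 2.39 and 2.28. EB2 cells had 1.22 at day 3 and 0.95 at day 1. Enteroendocrine cells also carried cic, at 2.47 and 2.05 in AstC+EE and 1.67 and 1.46 in Tk+EE cells of day 3 and day 1. Of the 162 neighbouring pairs of classes, ordered by UMIs for the 9 members in both libraries, 149 had overlapping intervals and 13 were apart. Those apart included Egfr in ISC2 over EB3 cells at day 1, sty in EB3 over ISC1 cells at day 1, and cic in EC-like over EB2 cells at day 3.

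Set against enteroendocrine cells, the members split. Past 1.5-fold in both libraries, progenitors were higher in Egfr, vn and aos (3 of 9 members, against 6.89% of 5543 genes) and lower in spi (1 of 9, against 20.9%). By the UMI intervals, aos, sty and cic were higher in progenitors in both libraries, against 10.8% of 4753 genes. For Egfr these intervals overlapped in both libraries. For vn they were apart at day 3, at 0.154 to 0.253 in progenitors and 0.00838 to 0.139 in enteroendocrine cells, and overlapped at day 1. These calls hold for both enteroendocrine classes joined. At day 3 the sty interval of Tk+EE cells, 1.68 to 2.74, overlapped that of progenitors, 1.94 to 2.16. The cic interval of AstC+EE cells, 2.09 to 3.11, overlapped 2.42 to 2.64 in progenitors. For aos, 0.198 to 0.614 in AstC+EE cells overlapped 0.445 to 0.599 in progenitors. The Egfr level was 0.214 in day 3 progenitors, against 0.191 in AstC+EE and 0.0123 in Tk+EE cells. The median difference of the members over both libraries was 0.43, against -0.20 over all genes.

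**Figure D2:**
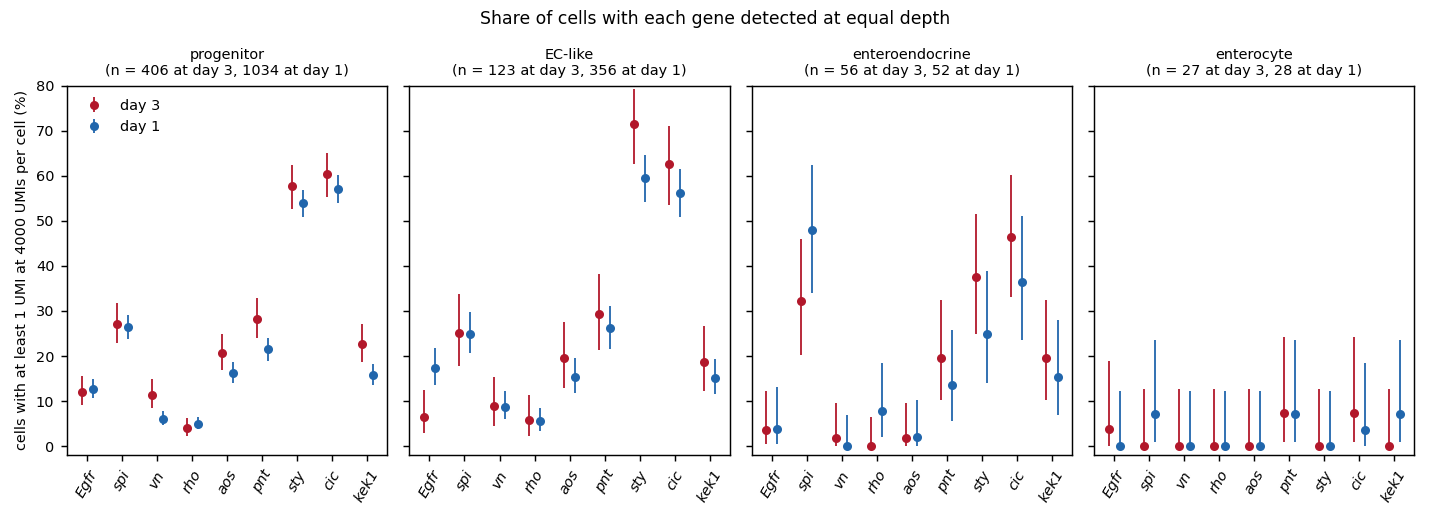
Share of cells with at least 1 UMI of each member after each cell was thinned to 4000 UMIs (vertical axis, percent), with day 3 in red left of day 1 in blue and exact Clopper-Pearson 95% intervals. Detection of sty and cic exceeds 50% of progenitors in both libraries, and enterocytes have 0 to 7.41% for each gene.

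Detection in single cells was compared at equal depth. After thinning to 4000 UMIs, a progenitor carried a mean of 2.4 of the 9 genes at day 3 and 2.1 at day 1. Enteroendocrine cells carried 1.63 at day 3 and 1.52 at day 1, and enterocytes 0.185 and 0.250. None of the 9 was found in 5.91% of 406 day 3 progenitors (3.82 to 8.67), against 7.54% of 1034 at day 1 (6.01 to 9.33). The share with none was 23.2% of enteroendocrine cells at day 3 and 21.2% at day 1, and 85.2% and 82.1% of enterocytes. Both spi and rho were found in 1.48% of day 3 progenitors (0.544 to 3.19), against 1.74% at day 1 (1.03 to 2.74). The product of their separate shares was 1.07% at day 3 and 1.30% at day 1, inside both intervals. For aos with kek1 the shares were 4.19% at day 3 (2.46 to 6.62), against 1.45% at day 1 (0.814 to 2.38), beside products of 4.69% and 2.56%. The day 1 product lay above the interval of the observed share when the progenitor classes were pooled. Within each progenitor class alone, the day 1 product lay inside the interval. At their own depth, cells no deeper than the median had higher shares. There sty was in 89.7% of day 3 and 88.0% of day 1 progenitors, against 3.70% and 3.45% of enterocytes. For vn the own-depth shares were 28.5% of day 3 progenitors (24.2 to 33.2) and 18.8% of day 1 progenitors (16.5 to 21.4), against no enterocyte. For aos they were 57.7% and 48.4% of progenitors, against 5.08% and 5.45% of enteroendocrine cells, at day 3 and day 1.

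Day 3 was then set against day 1 in 8 classes, with both enteroendocrine classes and both enterocyte classes joined to reach 50 cells per library. A gene entered a class at a level of at least 0.1 in 1 library, which 64 of the 72 pairs of member and class reached. The fold change is log2 of day 3 over day 1 after 0.1 is added to both levels, which understates the change of low genes. Of the 64, 45 were above 0, with a median of 0.11. The medians of all genes lay between -0.06 and 0.03 over the 8 classes. Past 1.5-fold were 3 pairs, aos in EB1 cells and rho in EB2 cells as higher at day 3 and kek1 in enterocytes as lower. Over all genes 3.87% of 35817 pairs were higher and 3.32% lower, so the members' counts were no larger than that share.

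In EB1 cells aos was at 0.672 at day 3 and 0.414 at day 1, which is a log2 difference of 0.59 (1 of 9 members, against 2.26% of genes higher in EB1). Its UMI intervals were apart, at 0.509 to 0.710 at day 3 and 0.348 to 0.484 at day 1. At 4000 UMIs, aos was found in 28.6% of 70 day 3 EB1 cells (18.4 to 40.6), against 14.9% of 322 at day 1 (11.2 to 19.3), with overlapping intervals. Leaving out the highest cell of each library gave 0.57, under the 1.5-fold line.

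In EB2 cells rho was at 0.600 at day 3 and 0.252 at day 1, which is a log2 difference of 0.99 (1 of 7 members above the minimum, against 4.52% of genes higher in EB2). Its UMI intervals did not overlap, at 0.413 to 0.647 at day 3 and 0.145 to 0.297 at day 1. Without the highest cells the difference was 0.83. The UMI bounds themselves allow a log2 difference between 0.62 and 1.36.

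In enterocytes kek1 was at 0.0139 at day 3 and 0.138 at day 1, which is a log2 difference of -1.06 (1 of 5 members above the minimum, against 11.5% of genes lower). All of the day 3 level came from 1 cell, and 38.5% of the day 1 level from 1 cell. The UMI intervals overlapped, at 6.29e-05 to 0.217 at day 3 and 0.0894 to 0.332 at day 1, so no difference was detectable at this depth. None of the members was past 1.5-fold in ISC1, ISC2, EB3, EC-like or enteroendocrine cells, where 1.4%, 2.81%, 4.95%, 4.28% and 15% of all genes were past it in either direction.

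Some differences that were not past 1.5-fold were also resolved by the UMI intervals. Day 3 lay above day 1 with intervals apart in 11 of the 64 pairs (6.8% of 35054 pairs over all genes) and below it in 1 pair (5.95%). The 11 included cic in ISC1, ISC2 and EB1 cells, where the bounds of the log2 difference ran from 0.34 to 0.47, 0.24 to 0.29 and 0.17 to 0.31. They included kek1 in ISC1, EB1 and EB3 cells, with bounds of 0.22 to 0.61, 0.21 to 0.61 and 0.35 to 0.55. The others were sty in ISC1 (0.30 to 0.49) and EC-like cells (0.29 to 0.30), pnt in ISC2 cells (0.27 to 0.41), and aos and rho as above. Without the cells of cluster 6, the sty intervals of EC-like cells overlapped.

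The receptor went the other way. Egfr in EC-like cells had 0.262 at day 3 and 0.390 at day 1 (log2 -0.44), with UMI intervals of 0.194 to 0.341 at day 3 and 0.362 to 0.488 at day 1. Without cluster 6 the day 1 interval was 0.374 to 0.518, and the intervals were still apart. At 4000 UMIs, Egfr was in 6.50% of 123 day 3 EC-like cells (2.85 to 12.4), against 17.4% of 356 at day 1 (13.6 to 21.8). At their own depth these cells had shares of 33.3% at day 3 (25.1 to 42.4) and 41.5% at day 1 (36.3 to 46.8), with overlapping intervals. On the level scale the Egfr differences were also below 0 in ISC1, ISC2, EB1, EB3 and enteroendocrine cells, from -0.42 to -0.07, with overlapping UMI intervals. In ISC1, EB1 and EB3 cells the UMI bounds of the log2 difference held 0, so the direction there was not settled. For vn the 6 classes above the minimum gave 0.10 to 0.54, each above 0, with overlapping UMI intervals in each. The UMI bounds of the vn difference held 0 in ISC1, EB2 and EB3 cells. The changes of spi lay between -0.26 in enteroendocrine cells and 0.11 in ISC1 cells.

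**Figure D3:**
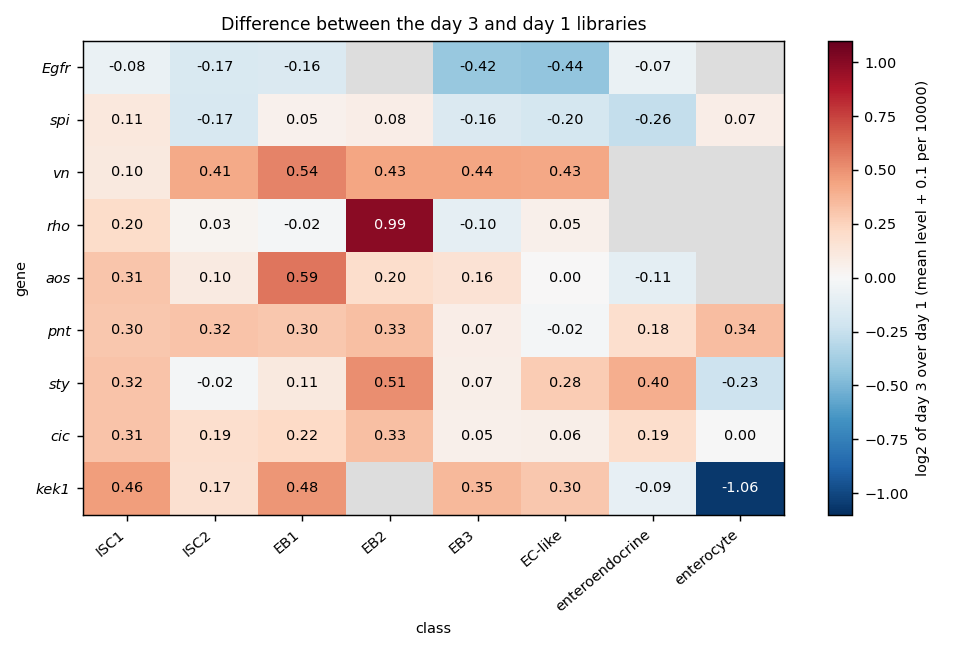
Log2 of the day 3 level over the day 1 level, after 0.1 per 10000 is added to both, for the 9 members (rows) in 8 classes (columns). Red is higher at day 3, blue is lower at day 3, and grey is below the minimum level in both libraries; rho in EB2 reads 0.99, aos in EB1 0.59 and Egfr is at or below -0.07 in its 6 filled classes.

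Across the 20 means of class and library, the members most alike in pattern were pnt and cic, with a Pearson r of log2 levels of 0.96, and sty and cic, with 0.91. The least alike were spi with vn and spi with rho, each at 0.35. These points share libraries, depth and the annotation, so r is a description over 20 points. Among 3499 genes above a minimum of 0.5 per 10000, the genes most like each member by this measure were Dsp1 for spi (0.98), Snx17 for rho (0.91), sba and Dok for aos (both 0.96), ena for pnt (0.97), CG43658 for cic (0.99) and Cirl for kek1 (0.90). For sty it was the progenitor gene esg, with 0.97 both by levels and by rebuilt UMI counts. By rebuilt counts the Snx17 value was 0.66. Egfr and vn were below that minimum and have no such list.

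A wider list of 45 genes of the EGFR and MAP kinase pathway was described beside the members, of which 41 were measured. Between progenitors and enterocytes, 27 passed the minimum level, of which 20 were higher in progenitors and 0 lower, against 37.4% and 19% of all genes. Between progenitors and enteroendocrine cells 31 passed, with 5 higher and 6 lower, against 6.89% and 20.9% of all genes, so the number lower was near the share of all genes. Higher in progenitors were Ets21C, an ETS factor (log2 1.58 at day 3 and 1.26 at day 1), edl, which encodes a partner of ETS factors (1.2 and 1.07), Myc, drk and btl. Lower in progenitors were mirr, a homeobox gene (-4.26 and -4.21), csw, the gene of a tyrosine phosphatase (-1.89 and -1.14), the kinase gene Src64B (-1.54 and -1.27), the kekkon gene kek5 (-1.36 and -1.43), kek2 and Dsor1.

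Around the members, S, whose product carries Spitz towards its protease, was highest in EB2 cells, at 0.774 at day 3 and 0.533 at day 1, the class with the high rho level at day 3. Mkp3, the gene of a MAP kinase phosphatase, was highest in EC-like cells, at 3.17 and 2.75, the class highest in sty. Between ages, 8 of 204 pairs of gene and class of the wider list were past 1.5-fold higher at day 3 and 1 lower, against 3.87% and 3.32% of the pairs of all genes, so the higher ones were at about the share of all genes. InR, the insulin receptor gene, was higher in EB1, EB2 and EB3 cells (log2 0.74, 0.72 and 0.60), Ets21C in EB2 (0.68), csw and rho-5 in enteroendocrine cells (0.86 and 0.79), and Pvr and rho-4 in enterocytes (0.65 and 0.63). Cbl, the gene of a ubiquitin ligase that dampens receptors, was lower in EB1 cells (-0.64), at 0.522 at day 3 and 0.870 at day 1.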

How the data were processed

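The members and gene lists were chosen with earlier results of these data known. Per the submitters' processing notes, reads were processed with Cell Ranger 6.0.1 on the BDGP6 build; the kit was Chromium v3.1, per the labels' protocols. Values in the deposited expression table are whole numbers after 1 was added and the natural log taken, and in 4184 of 4184 cells those numbers summed to the deposited depth-corrected total. Its column names point to SCTransform of Seurat. A deposited table of cells gives UMI counts per cell, with the RNA count equal to the spliced count in every cell, percent of mitochondrial counts, scores of the depth correction and the authors' classes. All cells carried a singlet call in the deposited data, and no further doublet caller was run here.

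The correction was inverted with 3 unknowns per gene. In the 2092 cells up to 28085.5 UMIs the rebuilt counts gave a median ratio to the deposited total of 1.00 (0.910 to 1.00), and 1042 of 9529 genes departed from the rule in some cell, none of them a member. These counts served for shares at 4000 UMIs (2000 and 8000 as alternatives). The UMI bounds over all cells used every set of unknowns found, 4 to 40 per member. For the share of all genes, 1 set per gene was used. The rule counted levels of at least 0.1 per 10000, a pseudocount of 0.1 and a fold of 1.5. Named genes were the members, the nearest genes by Pearson r, and of the wider list the largest differences. Gene positions come from Ensembl release 115 (BDGP6.54). A share of 0 is given with the limit that 3 counts allow. All intervals and limits cover counting error only. The measures were tested on simulated data. Python 3.11.15, NumPy 2.4.6, SciPy 1.17.1, pandas 2.3.3 and matplotlib 3.10.9 were used.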

Additional observations from a re-analysis of the deposited data

How the results depend on the processing

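No paired analysis was possible because each age had 1 library. The number of members whose highest class exceeded the lowest by 1.5-fold in both libraries was 9, as for 99.4% of all genes, and 5 with a pseudocount of 1; for the wider list it was 30 and 15. For day 3 against day 1, the 2 member and class pairs counted as higher became 11 with rebuilt UMI counts of the shallower cells, 1 with UMIs summed over cells, without the highest cells or with the UMI bounds, and 0 with the mean of natural log values, a pseudocount of 1 or a fold of 2. The 1 lower pair, kek1 in enterocytes, became 4 with rebuilt counts and 0 with natural log values, a pseudocount of 1, the highest cells left out or the UMI bounds. In the wider list the 8 higher pairs became 35 with rebuilt counts, 4 with natural log values and 0 with a pseudocount of 1 or a fold of 2. Its 1 lower pair became 13 with rebuilt counts, 3 without the highest cells, and 0 with natural log values, a pseudocount of 1 or a fold of 2. Rebuilt counts rest on fewer cells, in EB2 on 6 at day 3 and 24 at day 1. Against enterocytes, the 9 higher members became 5 with natural log values or the UMI bounds and 2 with a pseudocount of 1. Against enteroendocrine cells, the 3 higher members became 5 with rebuilt counts or the day 3 library alone, 1 with a fold of 2, and 0 with natural log values or a pseudocount of 1. The 1 lower member, spi, became 0 with rebuilt counts, natural log values, a pseudocount of 1, the highest cells left out, a fold of 2 or the UMI bounds. Of the shares per member, class and library, 104 were at least 10% at 4000 UMIs, and 77 to 150 at other depths or with any value above 0. The cause of these moves was not tested. No direction of a counted value turned. The UMI bounds were added after seeing the data. Depth also limits the enterocyte values, with 27 cells at day 3 and 29 at day 1 up to the median depth.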

Other observations

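Receptors other than Egfr that feed the same kinase cascade were spread differently over the classes. Pvr, the gene of a PDGF and VEGF receptor, had its highest level in EB2 cells, at 0.643 per 10000 at day 3 and 0.451 at day 1. The gene btl, which encodes an FGF receptor and also stood in the fixed trachea list, was highest in EB1 cells, at 0.288 at day 3 and 0.220 at day 1. InR was highest in EB2 cells at day 3 (3.16) and in Tk+EE cells at day 1 (2.01). Alk stayed at or under 0.0218 in every class of both libraries. The ligand gene grk had at most 0.0225 per 10000 in any class. Of the protease genes related to rho, rho-4 had its highest level in EB2 cells at day 3 (0.811) and in ISC1 cells at day 1 (0.604), and ru and stet had at most 0.00323 and 0.0197. In Tk+EE cells mirr reached 3.62 at day 3 and 3.33 at day 1, while its progenitor level was 0.00897 at day 3 and 0.00441 at day 1.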
